A study of Mus musculus with 4 samples.

Results

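The 10 enzymes are described here, every one with a probe on the array: the cytochromes Cyp2f2 and Cyp1b1, the glutathione S-transferases Gsta3, Gsta4 and Gstm1, the glutamate-cysteine ligase subunits Gclc and Gclm, and the redox enzymes Nqo1, Hmox1 and Txnrd1. They were taken as a list by name, with the results of an earlier look at these arrays known, and cover 12 of 41174 probes and 21 of 43379 probe spots. Of the 10 genes 8 had 1 probe and 2 had 2 probes, and all 10 entered the fit of 21464 genes. The RNA came from basal cells sorted from the prostates of adult FVB mice and grown as spheres, a three-dimensional culture of epithelial progenitors. One group of 2 arrays carried RNA of spheres kept in DMSO vehicle and the other group of 2 arrays RNA of spheres kept in 5 µM DAPT, an inhibitor of the γ-secretase complex that releases the active part of Notch receptors, with daily medium changes in both. No genetic change was named for either group. Each array set red-labelled sphere RNA against green-labelled universal mouse reference RNA. The comparison addresses how Notch signalling regulates basal cells of the prostate. Neither the number of animals nor separate cultures for a group's arrays are named in the labels, so that errors and p-values cover the spread of these samples alone, and that spread may be technical.

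Cells clear foreign and reactive compounds in steps. Cytochromes P450 add oxygen to them, transferases then couple the product to glutathione, sugars or sulphate, and pumps export the conjugate. Glutathione itself is made from glutamate, cysteine and glycine, with glutamate-cysteine ligase as the limiting step. Many of these genes answer to NRF2 (Nfe2l2), a transcription factor that KEAP1 holds at a low level until oxidants or electrophiles release it and that then binds antioxidant response elements. Others answer to the aryl hydrocarbon receptor AHR, for which Cyp1b1 is a textbook target.

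On each array 63.7% to 69.5% of probe spots passed the scanner software's test for being well above background in red. Median red signal divided by local background came to 1.95 for vehicle 1, 1.83 for vehicle 2, 2.84 for DAPT 1 and 2.4 for DAPT 2. In green this quotient was 12.6, 11.5, 18.5 and 14.5 in the same order. Both channels thus stood further above background on the DAPT arrays. The part of this split in the raw signals and in the ratios of dim genes was not tested. The 4 arrays lay on 1 slide and had 1 scan time, with the DAPT samples at positions 1 and 2 and the vehicle samples at 3 and 4, so that position and treatment cannot be told apart. The scanner software marked 11.5% and 29.2% of the spots as uneven or as outliers on the vehicle arrays, against 49.6% and 50.9% on the DAPT arrays. Without marked spots 3944 genes were left to test, with 2 members among them, Gsta3 at -0.85 and Gsta4 at -1.05. Both were counted as lower, with p-values adjusted over those 3944 genes. On vehicle 2, 9 of the 10 Gsta4 spots were marked, so its value there rests on the unmarked spot alone. Of the basal keratins, Krt5 had log2 ratios over the reference of 4.67, 4.63, 4.67 and 5.17 in the order vehicle 1, vehicle 2, DAPT 1, DAPT 2, and Krt14 of 4.52, 3.88, 4.32 and 4.17, and the basal factor Trp63 stood at 2.15, 1.96, 3.46 and 2.23. Krt15, Krt17, Itga6, Itgb4 and Col17a1, also on the basal list, were above the reference on every array, while Ngfr and Dst were below it on every array. The luminal keratin genes Krt8, Krt18 and Krt19 were above the reference on every array too, Krt8 between 3.65 and 4.30.

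Within the list, Cyp2f2, Cyp1b1, the alpha-class transferases Gsta3 and Gsta4 and Hmox1 had lower ratios with DAPT. Gstm1 stood at -0.64 and was not counted, and the ligase subunits, Nqo1 and Txnrd1 differed by 0.29 or less on the log2 scale. A change is the difference of the mean log2 ratios of sphere over reference RNA, DAPT minus vehicle, given ± SE from limma with 2 arrays in each group. At an adjusted p under 0.05 over all 21464 genes, 5 of the 10 members were lower (Cyp2f2, Cyp1b1, Gsta3, Gsta4 and Hmox1) and 0 higher, beside 3.92% of all genes lower and 2.88% higher (6.80% in all). With every kept probe on its own the same 5 genes were counted, each on 1 probe, beside 3.73% of 27284 probes lower and 3.17% higher (6.90% in all). The members were proposed with this contrast known, so the count is a description, no test is given for a member and nothing is read from it. Both DAPT arrays lay below both vehicle arrays for 6 members, above them for 2, and overlapped for 2. Over all genes 31.8% lay below and 22.1% above in the same way, 53.9% together. The median change of the 10 members was -0.74 and that of all genes -0.06. Over all genes 618 were higher and 841 lower (42.4% of calls higher). With median centring instead of loess that share was 70.6%, and it was 70.4% without marked spots, 27.7% with scale normalization between arrays, 4.11% with the spots of high local background kept and 0 of 1 call in the red channel alone. In the red channel alone no member passed, with the high background spots kept 1 passed (Cyp2f2), and with median centring 3 passed lower and Txnrd1 passed higher. All values come from bulk RNA, in which fewer cells of a type and less RNA per cell cannot be told apart.

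**Figure D1:**
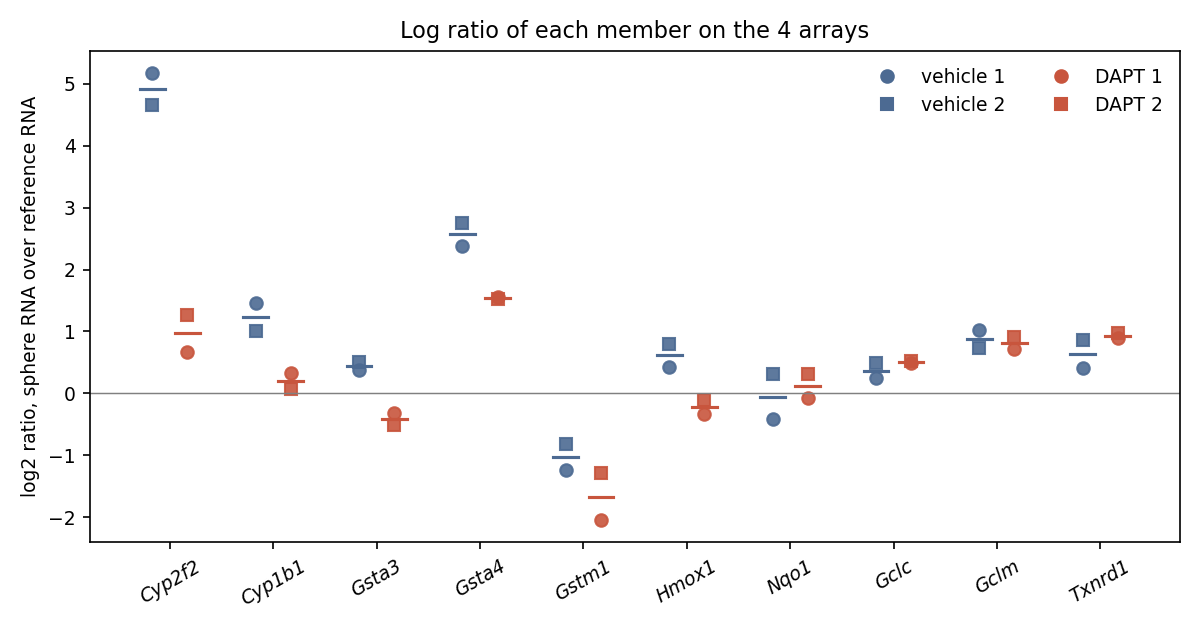
Log2 ratio of sphere RNA over reference RNA (vertical axis) for each of the 10 genes (horizontal axis), from the probe that stands for the gene. Circles and squares are replicates 1 and 2, blue is vehicle, red is DAPT, and bars are group means. Cyp2f2 goes from 5.18 and 4.67 to 0.66 and 1.27, and Nqo1 and Gclm overlap between groups.

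Cyp2f2, a cytochrome that oxidises naphthalene and related compounds and is best known from club cells of the lung, had by far the largest difference of the list. Its red signal was 1360 on vehicle 1 and 1086 on vehicle 2, and 126 on DAPT 1 and 148 on DAPT 2, as median pixel brightness before normalization. The green signal of the same spots, from the reference RNA, was 91, 140, 176 and 111. The sphere signal thus lay 23.9 and 19.4 times over its local background with vehicle and 2.07 and 2.47 times with DAPT, and the spot was well above background on all 4 arrays. The normalized log2 ratios were 5.18 and 4.67 with vehicle and 0.66 and 1.27 with DAPT, so the groups were separated by far more than the gap between arrays of a group. The change was -3.95 ± 0.25, a ratio 15.5-fold lower, which placed the gene at rank 4 from the lowest among the 21464. Over 16 alternative ways of processing the change ran from -4.60 with scale normalization to -3.54 with median centring.

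The named genes most like Cyp2f2 across the 4 arrays were chosen by the distance between log2 ratios after each gene had been centred on its mean. They were Sptssb, a subunit of the enzyme that starts sphingolipid synthesis, at a distance of 0.57, Mmp7, the protease matrilysin, at 0.93, the chemokine gene Cxcl13 at 1.07, the alcohol dehydrogenase gene Adh1 at 1.13, and Ctla2a at 1.24. Sptssb had log2 ratios of 4.35 and 3.48 with vehicle and 0.02 and -0.10 with DAPT, and Cxcl13 of 3.27 and 3.70 against 0.24 and 0.33. With 4 arrays, this likeness is a description of 2 high and 2 low values.

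Cyp2f2 was also set beside markers of the cell type it is known from. Of 9 tested markers of proximal luminal and club cells 1 fell (11.1%, beside 3.92% of all genes). It was Ly6d at -2.14 ± 0.23 (limma, adjusted p = 0.000295), with log2 ratios of 4.74 and 4.11 against 2.34 and 2.23. The secretoglobin gene Scgb1a1, the defining club cell marker, had log2 ratios of 0.42, 0.08, -0.11 and 0.10. Its change of -0.26 ± 0.21 did not pass (limma, adjusted p = 0.496). Scgb1a1 was dim in both groups, with a mean log2 red signal of 7.90 with vehicle and 7.54 with DAPT. Cyp2f2 with DAPT stood at 7.55, so Scgb1a1 had little room to fall and its value says little. Summed over those 9 markers, the log2 red signal of the vehicle arrays was 17.40 and 17.22 and that of the DAPT arrays 16.91 and 17.15. The sum rests mostly on the brightest markers, Krt7 (mean log2 red 16.32 with vehicle, 15.97 with DAPT) and Wfdc2 (15.22 and 15.41). It therefore says little about the dimmer markers. Their part in the Cyp2f2 result was not tested.

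Cyp1b1, which oxidises aromatic hydrocarbons and oestrogens, had log2 ratios of 1.45 and 1.01 with vehicle and 0.32 and 0.07 with DAPT. The change was -1.03 ± 0.22, or 2.04-fold lower. Its spots were dim, with red signals of 187, 150, 149.5 and 137, close to one another. The green signals of the same spots were 166, 206.5, 364.5 and 323, so the reference side was brighter on both DAPT arrays. Loess and Aquantile normalization put all arrays on one intensity scale. The normalized mean log2 signal in red was 8.39 for vehicle against 7.74 for DAPT, and in green 7.16 against 7.55. By these signals 0.65 of the difference lay in red and 0.39 in green. That split depends on the normalization, as the raw red signals were close to one another. With the scanner software's own processed signals the change was -2.07, and in the red channel alone -0.65.

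AHR, the receptor that drives Cyp1b1, is no member but was on a list of further pathway genes. Ahr fell by 1.83 ± 0.20 on the log2 scale (3.55-fold lower; limma, adjusted p = 0.000359), with log2 ratios of 2.29 and 1.96 against 0.22 and 0.37. The call held without any one of the arrays but not in the red channel alone (-1.62, adjusted p = 0.232). Its partner Arnt at -0.11 ± 0.20 (adjusted p = 0.787) and the AHR-induced gene Tiparp at -0.32 ± 0.19 (adjusted p = 0.347) did not pass, and Cyp1a1, another AHR target, had no group in which both of its arrays were well above background. Of 26 tested genes of the cytochrome P450 and AHR list 2 fell and 0 rose, with a median change of -0.19. The other was Cyp3a11 at -0.74 ± 0.20 (adjusted p = 0.0462). Its red signal differed by -0.12 and its green signal by 0.62, and the call was lost without vehicle replicate 2 (adjusted p = 0.119) and without either DAPT array (0.195 and 0.0562). The largest value above 0 was that of Cyp51, a sterol synthesis enzyme, at 0.69 ± 0.20 (adjusted p = 0.0572), and Por, the electron donor of these cytochromes, stood at 0.01 ± 0.20 (adjusted p = 0.99).

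Promoter windows of 300 bases, from 250 before to 50 after the transcript start, were read from RefSeq (GRCm38.p6) for 7 members with 10 windows. Hmox1, Gsta4 and Gclc were not among them. The core of the antioxidant response element was searched as TGACNNNGC, that of the AHR response element as GCGTG and that of the RBPJ site, through which Notch acts on its targets, as TGGGAA, each on both strands. The windows below are shown because they hold the NRF2 or AHR letters in members that differ in their response, and because Cyp2f2, with the largest difference, holds none of the 3. Capitals mark TGACNNNGC and GCGTG on either strand, and no RBPJ core overlapped them.
Cyp2f2, chr7:27119705-27120004, plus strand: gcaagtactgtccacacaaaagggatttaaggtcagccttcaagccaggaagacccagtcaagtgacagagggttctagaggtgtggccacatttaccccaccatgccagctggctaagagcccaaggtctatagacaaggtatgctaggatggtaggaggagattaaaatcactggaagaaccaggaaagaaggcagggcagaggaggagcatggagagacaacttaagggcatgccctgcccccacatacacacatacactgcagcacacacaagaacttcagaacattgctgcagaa
Cyp1b1, chr17:79715012-79715311, minus strand: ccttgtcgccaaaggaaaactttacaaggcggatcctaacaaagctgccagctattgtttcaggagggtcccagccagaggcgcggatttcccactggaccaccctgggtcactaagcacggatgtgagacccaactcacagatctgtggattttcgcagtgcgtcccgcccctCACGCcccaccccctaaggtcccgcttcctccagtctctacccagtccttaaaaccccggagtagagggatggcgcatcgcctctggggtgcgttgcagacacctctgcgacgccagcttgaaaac
Gsta3, chr1:21240335-21240634, plus strand: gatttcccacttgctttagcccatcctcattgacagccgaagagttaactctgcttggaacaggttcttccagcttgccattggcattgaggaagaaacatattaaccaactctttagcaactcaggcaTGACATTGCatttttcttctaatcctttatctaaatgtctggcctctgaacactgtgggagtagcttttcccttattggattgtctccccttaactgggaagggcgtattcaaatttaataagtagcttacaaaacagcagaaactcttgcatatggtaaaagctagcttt
Gclm, chr3:122245307-122245606, plus strand: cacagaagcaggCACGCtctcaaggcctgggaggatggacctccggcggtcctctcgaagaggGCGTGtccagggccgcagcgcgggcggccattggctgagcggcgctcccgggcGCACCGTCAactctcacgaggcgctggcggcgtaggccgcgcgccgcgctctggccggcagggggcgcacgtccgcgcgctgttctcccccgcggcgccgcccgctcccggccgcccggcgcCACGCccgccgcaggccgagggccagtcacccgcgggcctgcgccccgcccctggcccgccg
Txnrd1, chr10:82858956-82859255, plus strand: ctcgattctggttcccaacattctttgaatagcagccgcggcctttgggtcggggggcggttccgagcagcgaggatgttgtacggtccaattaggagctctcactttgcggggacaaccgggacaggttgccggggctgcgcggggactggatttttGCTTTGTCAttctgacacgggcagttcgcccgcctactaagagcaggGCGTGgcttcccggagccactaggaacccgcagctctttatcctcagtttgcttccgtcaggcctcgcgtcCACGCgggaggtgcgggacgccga
The antioxidant core began 121 bases before the start in Gsta3, 134 before it in Gclm and 92 before it in one of the 3 Txnrd1 windows. Of all 32851 mouse windows, 12.4% hold this core, 32.4% the AHR core and 25.6% the RBPJ core, and of the 10 member windows 3, 7 and 4 did. The 2 Gstm1 windows overlap and share the same AHR core. The AHR core began 76 bases before the Cyp1b1 start, on the opposite strand, and the RBPJ letters occurred in windows of Cyp1b1, Gsta3, Nqo1 and Txnrd1. Members with the antioxidant core thus include Gsta3, with a lower ratio in DAPT, and Gclm and Txnrd1, without one. A match is a description of letters in a short window, not a bound site.

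Among the glutathione transferases, Gsta4 was measured best. It conjugates 4-hydroxynonenal, a toxic aldehyde of lipid peroxidation, and its probe was printed in 10 spots on every array. The mean log2 ratio of the 10 spots was 2.38 ± 0.17 (SD over spots) and 2.76 ± 0.11 for the vehicle arrays and 1.55 ± 0.13 and 1.52 ± 0.24 for the DAPT arrays. The lowest vehicle spot, at 2.14, lay above the highest DAPT spot, at 1.82, so no spot of one group overlapped the other. The spots of an array share 1 RNA, however, and count as 1 value. The change was -1.03 ± 0.21, or 2.04-fold lower. Before normalization the mean red signal of the spots was 2044 and 1715 with vehicle and 1505 and 1111 with DAPT. In green it was 1144 and 1011 against 1280 and 973. After normalization the mean log2 signal went from 12.03 to 10.65 in red and from 9.46 to 9.11 in green, so the red gap was wider than in the raw signals. The size depended on normalization, from -1.49 with scale normalization to -0.66 with median centring. Gsta4 was not counted with median centring, nor with the processed signals (-0.73), with the high background spots kept (-1.18) or in the red channel alone.

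**Figure D2:**
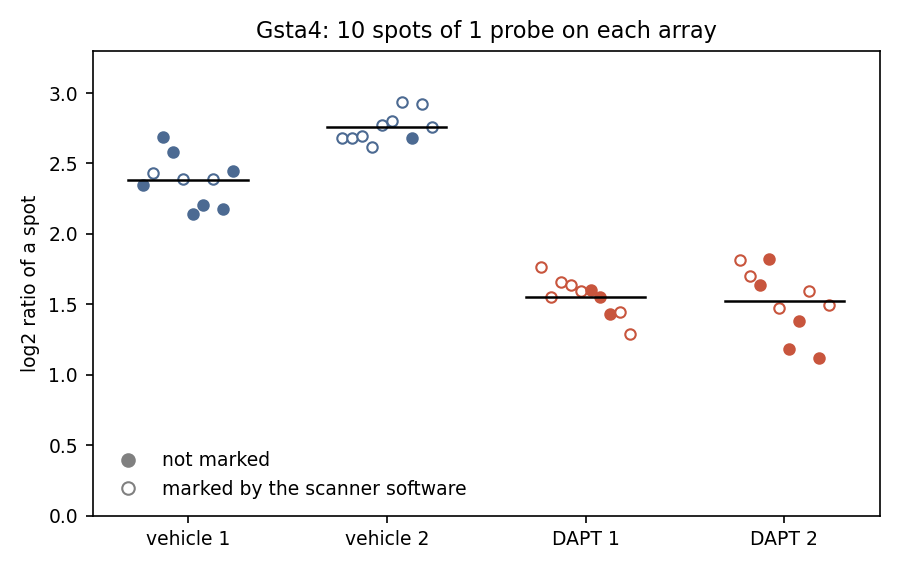
Log2 ratio (vertical axis) of each of the 10 spots of the Gsta4 probe on the 4 arrays. Filled points were not marked by the scanner software, open points were, and the black line is the mean of the array. All vehicle spots lie at 2.14 or above and all DAPT spots at 1.82 or below, marked or not.

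Gsta3, an alpha-class transferase, was dim. On the probe that stood for it the red signal was 1.69 and 2.02 times its local background with vehicle and 1.34 and 1.15 times with DAPT, and it was not well above background on either DAPT array. Its log2 ratios were 0.38 and 0.50 with vehicle and -0.31 and -0.52 with DAPT, with a change of -0.85 ± 0.20. The normalized red signal had log2 means of 7.55 with vehicle and 6.60 with DAPT, 1.94-fold lower, a value open to dye bias. As the DAPT signal was near background, this is the measured value and neither a bound nor a precise size. With the scanner software's processed signals the change was -2.07. The second probe, with log2 ratios of 0.95, 0.18, -0.30 and -0.12, was well above background on 1 vehicle array and 1 DAPT array, was therefore left out of the fit, and differed by -0.77 ± 0.24. Gsta3 was not counted without vehicle replicate 2 (-0.79) or without DAPT replicate 2 (-0.75). Its call was also lost with no filter on dim probes (-0.77), with the high background spots kept (-0.63) and in the red channel alone (-0.96). Gsta3 has close relatives, and whether its probes tell them apart was not analysed here.

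Gstm1, a mu-class transferase, was lower in sphere RNA than in the reference in both groups. Its first probe read -1.23 and -0.82 with vehicle and -2.05 and -1.29 with DAPT, and the second -1.11 and -0.57 against -1.75 and -1.06. The groups did not overlap on the first probe, by a narrow margin, and overlapped on the second. The changes were -0.64 ± 0.26 and -0.56 ± 0.25, and neither probe was counted. Without DAPT replicate 2 the gene was counted, at -1.02, and without DAPT replicate 1 it stood at -0.27. Mu-class genes are near-identical relatives, so the probes may share signal among them.

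Of the 16 other glutathione transferases tested, 6 fell (37.5%, beside 3.92% of all genes) and 0 rose, and the median change was -0.57. The largest fall was that of Mgst1, a microsomal enzyme that protects membranes from peroxides, at -2.02 ± 0.20 (4.04-fold lower; limma, adjusted p = 0.000159), with log2 ratios of 2.92 and 2.75 against 0.76 and 0.88. That value is from the brightest of its kept probes. With the mean of the kept probes it was -1.37, so its probes differed, and Mgst1 was no longer the largest fall (Gstt3 -1.80). Without marked spots, where another probe may stand for the gene, it was -0.72 and the call was lost (adjusted p = 0.111). The theta-class gene Gstt3 fell by 1.80 ± 0.20 (adjusted p = 0.00031), from 2.58 and 2.41 to 0.76 and 0.65. Gsto2, an omega-class enzyme that reduces dehydroascorbate, fell by 1.38 ± 0.22 (adjusted p = 0.00356), and Gstt2 by 1.37 ± 0.24 (adjusted p = 0.00617). Mgst3 at -1.21 and Mgst2 at -0.82, named after their values were seen, were the other falls. The Mgst2 call was lost with vehicle replicate 1 left out (adjusted p = 0.081) and with either DAPT array left out (0.0918 and 0.0504), while the other 5 falls held without any one array. The reference channel moved too, by 0.59 for Mgst1 and 0.57 for Gsto2, against -1.42 and -0.81 in red. None of the 6 passed in the red channel alone. Gstp1, the pi-class transferase, stood at -0.12 ± 0.20 and did not pass (adjusted p = 0.767), and the largest value above 0 was that of Gstcd at 0.12 ± 0.20 (adjusted p = 0.753).

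Neither subunit of the enzyme that limits glutathione synthesis was counted. Gclc, the catalytic subunit of glutamate-cysteine ligase, had log2 ratios of 0.25 and 0.48 with vehicle and 0.49 and 0.52 with DAPT. Both DAPT values were the higher ones, by less than the gap between the vehicle arrays, and the change was 0.14 ± 0.20. Gclm, the modifier subunit that raises the enzyme's efficiency, read 1.03 and 0.74 against 0.72 and 0.92, overlapping, with a change of -0.06 ± 0.20. The sign of the Gclm value turned without vehicle replicate 1 (0.08) and without DAPT replicate 1 (0.03). Both subunits lay within 0.20 of the median of all genes.

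Of 15 other genes of glutathione synthesis and use 1 fell and 0 rose, with a median change of -0.04. Gss, which adds glycine in the last step, stood at 0.11 ± 0.22 (limma, adjusted p = 0.816), and the largest value above 0 was that of Ggct at 0.23 ± 0.22 (adjusted p = 0.572). The fall was that of Glrx, glutaredoxin, which uses glutathione to reduce protein thiols, at -0.89 ± 0.20 (adjusted p = 0.0189). Its log2 ratios were -0.27 and -0.08 against -1.13 and -1.01, and its call was lost without vehicle replicate 2 and without DAPT replicate 1 (adjusted p = 0.055 and 0.0581). With the processed signals of the scanner software it stood at -0.18 (adjusted p = 0.805).

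Of the redox enzymes, Hmox1 was counted as lower and Nqo1 and Txnrd1 were not counted. Hmox1, haem oxygenase, which breaks haem down to biliverdin, iron and carbon monoxide, had log2 ratios of 0.43 and 0.80 with vehicle and -0.33 and -0.11 with DAPT. The groups did not overlap, and the change was -0.83 ± 0.21, or 1.78-fold lower. Before normalization its red signals were 1879 and 2629 against 2324 and 2324.5, so the raw red values overlapped. Normalized, the red log2 means were 12.28 for vehicle and 11.55 for DAPT and did not overlap. The size was -0.39 with median centring and -0.49 with the processed signals, and the gene was counted with neither. Nor was it counted with a normexp offset of 10 (-0.79), with the high background spots kept (-0.86) or in the red channel alone (-0.73). Without vehicle replicate 2 (-0.65) or DAPT replicate 1 (-0.73) it was not counted either.

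Nqo1, a quinone reductase and the usual marker of NRF2 activity, had log2 ratios of -0.42 and 0.31 with vehicle and -0.08 and 0.31 with DAPT. Both DAPT values lay inside the vehicle range, and the change was 0.17 ± 0.25. It turned to -0.20 without vehicle replicate 1, to -0.03 without DAPT replicate 2 and to -0.20 in the red channel alone, so no direction is given. Txnrd1, the cytosolic thioredoxin reductase, read 0.41 and 0.87 against 0.89 and 0.97. The DAPT values were the higher ones, by less than the spread of the vehicle arrays, and the change was 0.29 ± 0.21. It was 0.06 without vehicle replicate 1, and 0.74 with median centring.

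**Figure D3:**
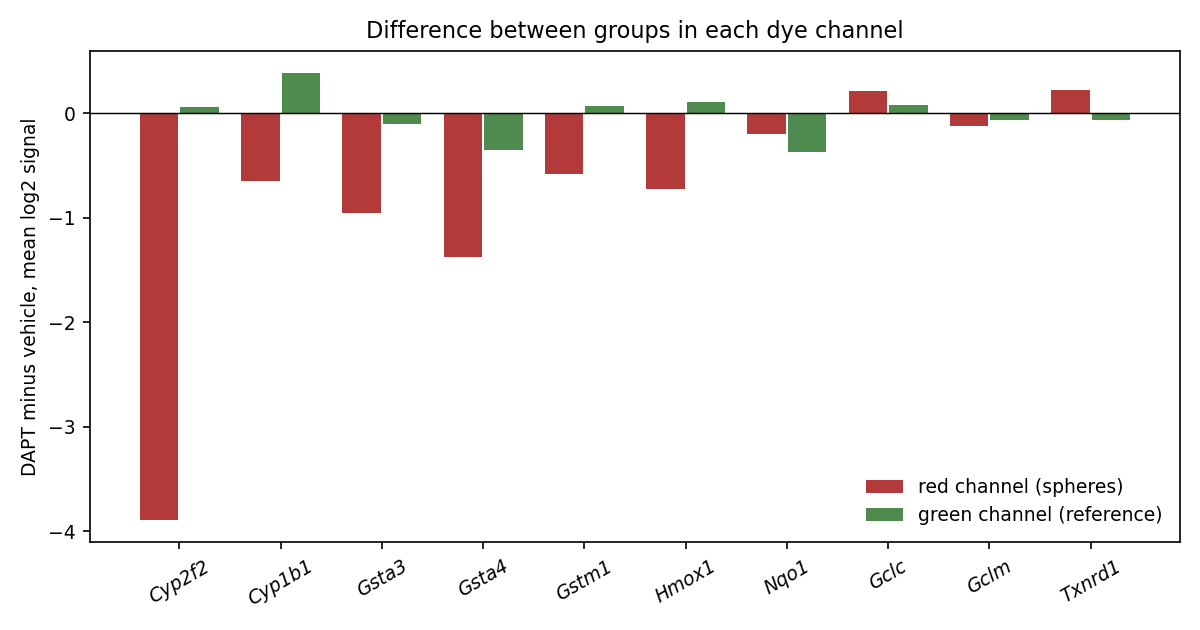
Difference between groups, DAPT minus vehicle, in the mean log2 signal of the red channel (sphere RNA) and of the green channel (reference RNA) for each gene, after loess and Aquantile normalization. Bars start at 0. Red differences reach -3.89 for Cyp2f2 and -1.38 for Gsta4, and green differences reach 0.39 for Cyp1b1 and -0.37 for Nqo1.

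The reference RNA was the same on all arrays, so green differences between groups were printed beside the red ones. The normalized green signal is computed from the ratio and the mean intensity of both channels, however. It therefore depends on the sphere RNA too and is no independent measure of noise. Over the 21464 genes the median absolute green difference between groups was 0.25, with 1 gene in 10 above 0.67, against 0.32 and 0.83 in red. No member's green difference exceeded 0.39 in size on the probe standing for the gene. In red, both DAPT arrays were below both vehicle arrays for 5 members and above them for 1, Gclc, and 4 overlapped, beside 25.0% of all genes below and 21.6% above in red. After normalization the red difference of Cyp2f2 was 14.9-fold, that of Gsta4 2.60-fold, that of Hmox1 1.66-fold and that of Cyp1b1 1.56-fold, all lower with DAPT.

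The regulators and other targets of NRF2 were examined as further lists. Nfe2l2 itself had log2 ratios of 1.34 and 1.66 with vehicle and 1.30 and 1.13 with DAPT, a change of -0.29 ± 0.20 that did not pass (limma, adjusted p = 0.438). Keap1, its inhibitor, stood at -0.09 ± 0.22 (adjusted p = 0.854). Of 10 genes of NRF2 control 1 fell and 0 rose, with a median of -0.34. Mafk, a small MAF partner of NRF2, fell by 0.72 ± 0.19 (adjusted p = 0.0459), but the call was lost without each of the arrays in turn (adjusted p = 0.0577 to 0.193). The largest value above 0 was that of Cul3, the ubiquitin ligase scaffold that works with KEAP1, at 0.57 ± 0.21 (adjusted p = 0.128). Of 23 other NRF2 targets 0 fell and 0 rose, with values from -0.55 for Aox1 (adjusted p = 0.145) to 0.40 for Slc7a11, the cystine importer (adjusted p = 0.289), and a median of -0.19. Srxn1, which repairs oxidised peroxiredoxins, stood at -0.40 ± 0.20 (adjusted p = 0.252), but at -0.09 with the mean of its kept probes. Srxn1 stood at 0.51 without marked spots (adjusted p = 0.124), where another probe may stand for it. In the red channel alone it was 0.08, so no direction is given. Gsr, which regenerates glutathione, stood at -0.01 ± 0.19 (adjusted p = 0.984). A p above the threshold with 2 arrays a group does not show that these genes were unchanged.

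Of 16 genes that remove peroxide and superoxide 2 fell and 0 rose, with a median of -0.09. Prdx5, a peroxiredoxin, fell by 1.11 ± 0.20 (limma, adjusted p = 0.00774), with log2 ratios of 0.41 and 0.63 against -0.46 and -0.70, and -1.11 in red. The call was lost with the processed signals (-0.51, adjusted p = 0.405), with median centring (-0.65, adjusted p = 0.0793) and in the red channel alone (adjusted p = 0.314). Sod3, the extracellular superoxide dismutase, fell by 1.13 ± 0.27 (adjusted p = 0.0257), but its red signal differed by -0.28 and its green signal by 0.86, and the call was lost without DAPT replicate 2 (-0.67, adjusted p = 0.174). The largest value above 0 was that of Nqo2 at 0.32 ± 0.19 (adjusted p = 0.353).

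Of 25 genes of other conjugation and oxidation 4 fell and 1 rose, with a median of -0.21. Adh1, an alcohol dehydrogenase that also oxidises retinol, fell by 3.26 ± 0.37 (limma, adjusted p = 0.000417), from log2 ratios of 5.57 and 3.98 to 1.53 and 1.49. Adh7, its relative of stratified epithelia, fell by 1.55 ± 0.20 (adjusted p = 0.000927), from 1.91 and 2.11 to 0.59 and 0.35. The glucuronosyltransferase probe named Ugt1a6b fell by 1.41 ± 0.21 (adjusted p = 0.00271), and as genes of the Ugt1a locus share exons it may read its neighbours too. The flavin monooxygenase genes went opposite ways. Fmo2 fell by 1.31 ± 0.29 (adjusted p = 0.0203; -0.77 without vehicle replicate 1, adjusted p = 0.0545). Fmo5 rose by 1.71 ± 0.25 (3.28-fold; adjusted p = 0.00227), from 1.21 and 0.44 to 2.69 and 2.38, and was the only rise among the 131 tested genes of the 7 lists. Across these lists 16 genes fell, 12.2% beside 3.92% of all genes, with a median change of -0.20. With the scanner software's processed signals 7 of these falls passed, those of Ahr, Mgst1, Gstt2, Gstt3, Adh1, Adh7 and Sod3, and the rise of Fmo5 did not (1.36, adjusted p = 0.0888). With the high background spots kept 3 falls passed, those of Ahr, Mgst1 and Gstt3.

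**Figure D4:**
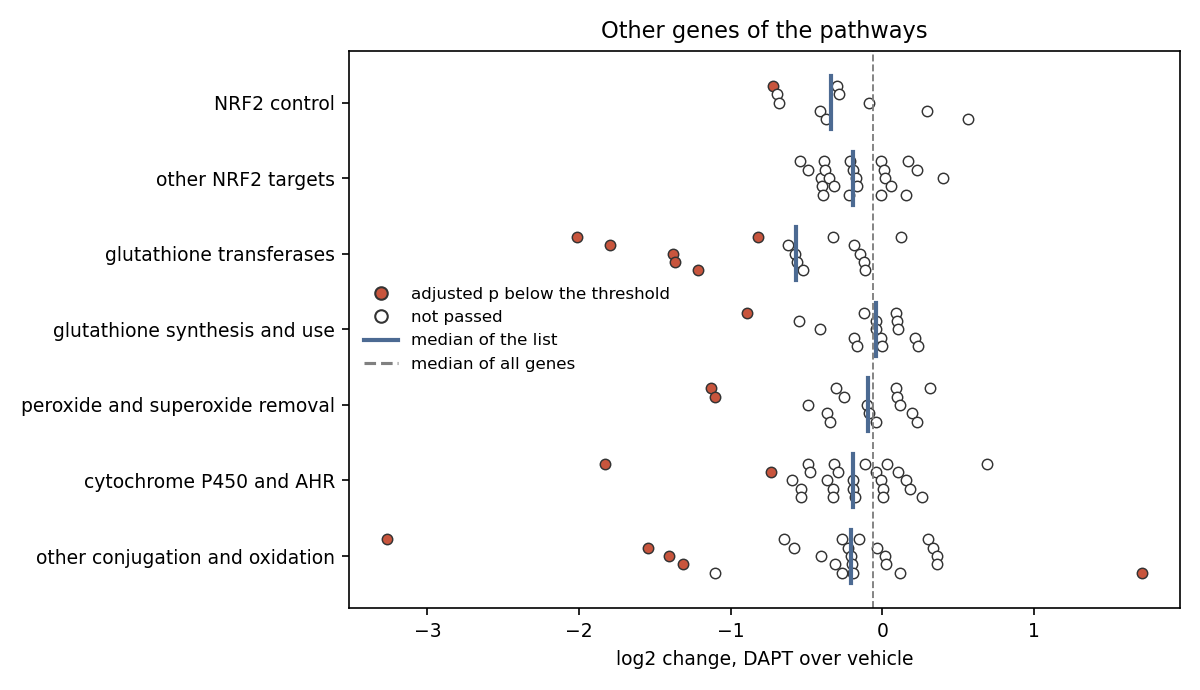
Log2 change, DAPT over vehicle (horizontal axis), of every tested gene of the 7 further lists (rows). Filled points passed an adjusted p of 0.05, blue bars are list medians and the dashed line is the median of all genes at -0.06. The transferase row has 6 filled points to the left, and the row of NRF2 targets has none.

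Markers of other cell types were measured on the same arrays. They were chosen with earlier results of these data known. Of 14 markers of fibroblasts and smooth muscle 8 fell (57.1%) and 0 rose, beside 3.92% of all genes lower and 2.88% higher. The median change of the 14 was -1.30. Their summed log2 red signal was 16.90 and 16.97 with vehicle and 16.30 and 16.44 with DAPT. The proteoglycan gene Dcn fell by 1.85 ± 0.23 (limma, adjusted p = 0.000636), while Acta2, the smooth muscle actin gene, stood at -0.04 (adjusted p = 0.937) and Lum at 0.16 (adjusted p = 0.725). Cyp1b1 is also known from fibroblasts, and the part of these markers in the lower values of the members was not tested. Of 8 tested luminal markers 2 fell (25.0%), 0 rose and 6 did not pass, with a median of -0.33. Among the luminal keratin genes Krt19 fell by 1.11 ± 0.19 (limma, adjusted p = 0.00575). Krt8 at -0.36 (adjusted p = 0.328) and Krt18 at -0.10 (adjusted p = 0.82) did not pass. Of 10 basal markers 1 fell, Krt15, and of 4 endothelial and 7 leukocyte markers 0 fell. The luminal marker Pbsn and the endothelial markers Cdh5, Kdr and Tek were not well above background. No tested marker named here rose.

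**Figure D5:**
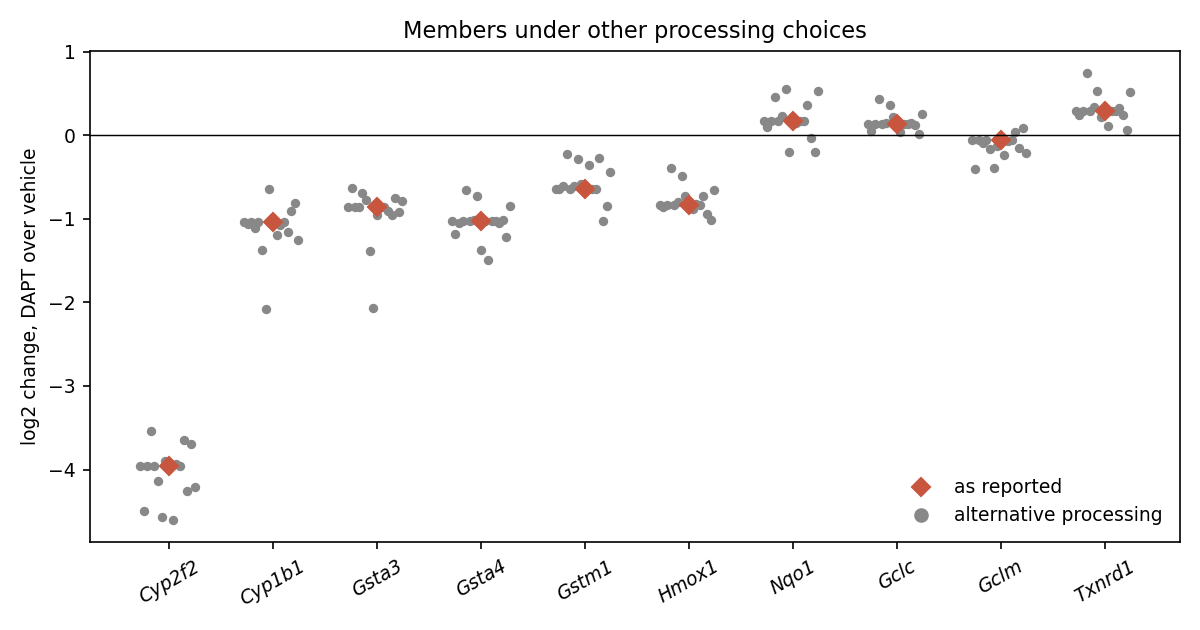
Log2 change, DAPT over vehicle (vertical axis), of each gene as reported (diamond) and under the alternative ways of processing (grey points). Cyp2f2 stays between -4.60 and -3.54, Cyp1b1 and Gsta3 reach -2.07 with the scanner software's processed signals, and Nqo1 and Gclm lie on both sides of 0.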

How the data were processed

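RNA of 4 prostate sphere samples was measured on 2-colour arrays, sphere RNA in red and reference RNA in green per the labels. Per the file headers, Agilent Feature Extraction 10.7.3.1 wrote each file, with spot and local background intensity as median pixel brightness, plus processed intensity values that it had background-subtracted and dye-normalized. The deposited log10 ratio was read only to place the authors' deposited table of log2 values, which correlated with it at 0.869 to 0.902, and with the ratios computed here at 0.9997 to 0.9999, and had column medians of 0.00072, -0.011, -0.015 and -0.011. How they were normalized is not stated in the labels or headers.

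Here 13 DAPT 2 spots with a local background over 5 times the median were left out, then normexp (offset 50) and loess within arrays were applied. Probes were named through RefSeq accessions (24375 of 41174). A probe needed a red signal well above background in both samples of 1 group or more, and a gene was represented by its brightest such probe. limma 3.58.1 in R 4.3.3 (lmFit, eBayes, two-sided, Benjamini-Hochberg over 21464 genes, threshold 0.05, 2 residual and 10.2 prior degrees of freedom) compared the groups and was tested on simulated data. Members, lists and markers were chosen with earlier results of these data known. Named genes were the 10 members, Nfe2l2, Keap1, Slc7a11, Srxn1, Gsr, Gss, Ahr and Cyp1a1, in each list up to 4 passing genes with the largest change in each direction (with none, its largest change each way), and the 5 genes nearest Cyp2f2. Others, markers apart (Arnt, Tiparp, Por, Gstp1, Mgst2, Mgst3), were chosen after their values were seen. The number of arrays limits the precision. Some marker genes are not reported here.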

Additional observations from a re-analysis of the deposited data

How the results depend on the processing

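All results rest on 2 arrays a group. Calls of genes higher and lower over the whole table, 618 and 841 as reported, came to 290 and 337 with the processed signals, 1263 and 527 with median centring, 384 and 1000 with scale normalization, 358 and 517 with a normexp offset of 10, 174 and 73 on the 3944 genes left without marked spots, 3 and 70 with the high background spots kept, and 0 and 1 in the red channel alone (limma; 2638 at an unadjusted p under 0.05). Of the further pathway genes, 1 higher and 16 lower as reported, the same settings gave 0 and 7, 3 and 10, 1 and 21, 1 and 11, 1 and 3, 0 and 3, and 0 and 0. With every probe on its own, with the mean of a gene's probes and with the replicate block, 2 were higher. Of 277 values of the 17 passing pathway genes under alternatives, 203 kept the call and 74 lost it. The cause of these shifts was not tested, apart from the fewer genes tested without marked spots.

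Leaving out 1 array at a time, with the lone sample of its group assumed to vary like the others, gave 415 to 810 higher and 595 to 1023 lower genes, 1 higher and 13 to 15 lower pathway genes, and 3 to 5 lower members. The labels name no link between same-numbered samples beyond the number. Their deviations correlated at 0.0845, which cannot show whether they were paired. The replicate block gave 894 higher and 1169 lower genes, 19 lower pathway genes and the same count of 5 lower members. All arrays lay on 1 slide with 1 scan time, so a slide or scan block could not be fitted.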
